A study of Mus musculus with 8 samples.

Results

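A list of 36 genes of endothelial cells, the cells that line blood and lymph vessels, was followed in embryonic mouse lung. The genes were listed by function and taken by annotated symbol, with the probe set of highest mean signal standing for each gene. All 36 were among the 18193 genes named on the E18.5 array, and 27 were among the 8251 named on the E11.5 array, which is of another type.

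RNA from 8 samples of FVB/N mouse embryos was hybridised to Affymetrix arrays, which give 1 signal for each probe set (a group of probes for one transcript). At E18.5 (E for embryonic day) the labels name 3 single transgenic control lungs and 3 double transgenic (bitransgenic) lungs of an SP-C/MIA line, from littermates. At E11.5 they name 1 lung and 1 trachea. MIA is a secreted protein, and the study asked what its misexpression does to lung gene expression and which genes differ between early lung and trachea. SP-C is surfactant protein C, whose promoter is used to direct transgenes to distal lung epithelium, so the transgene is not aimed at the endothelium itself. The labels do not say which transgene the controls carried, name no inducing agent and do not say whether an array held RNA of 1 embryo or of several, so p-values measure the spread between these samples, and shared litters could not be modelled. Mia itself, which tests the labels, had signals of 1071, 1070 and 734 in the control lungs against 31400, 42670 and 41550 in the bitransgenic ones.

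Endothelial cells are joined by adherens and tight junctions built on VE-cadherin and claudin 5. They are held and shaped by receptors for vascular endothelial growth factors (VEGFs), angiopoietins and BMP-family ligands, and their gene program is driven largely by ETS-family transcription factors. In the late fetal lung a dense capillary bed grows against the thinning epithelium. Because whole lungs were measured, fewer endothelial cells and less RNA per cell cannot be told apart in any value below.

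At E18.5, 34 of the 36 genes passed the low-signal filter, and 0 of them passed the test in either direction (limma, adjusted p under 0.05 over 12623 genes). In the same fit 0.673% of all genes were called, 0.436% lower and 0.238% higher. With array weights, which let the arrays count unequally, 13 of the 34 were called lower, where 5.78% of all genes were, but that fit stopped before full convergence. At an unadjusted p under 0.05, 17 of the 34 were lower and 0 higher, where 5.13% of all genes were lower and 4.53% higher. The log2 change, bitransgenic minus control, was below 0 for 32 of the 34, against 47.4% of all genes tested. Its median was -0.37 over the 34 and 0.01 over all genes. In 18 of the 34 every bitransgenic signal lay below every control signal, against 7.54% of all genes, and in 0 every bitransgenic signal lay above, against 8.84% of all genes. Most of the changes thus pointed one way, and with equal weights no single gene differed by more than the spread of 3 arrays per group once all genes tested were accounted for. The plot of log2 changes by role shows the intervals behind these counts.

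**Figure D1:**
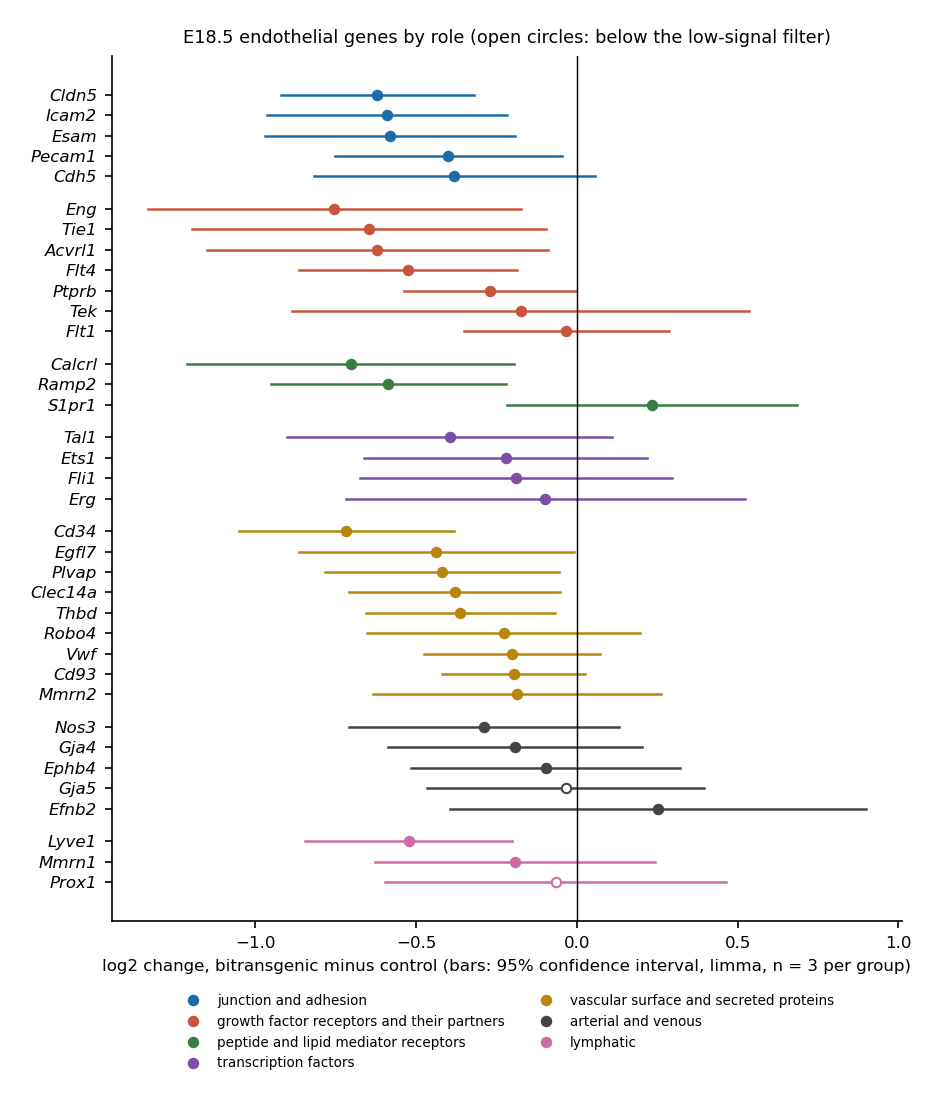
Log2 change of each of the 36 endothelial genes at E18.5 (bitransgenic minus control, horizontal axis), grouped by role and ordered within each role; points are limma estimates, bars are 95% confidence intervals with n = 3 per group, and open circles are the genes below the low-signal filter. The points of 34 of all 36 genes lie left of 0, and S1pr1 (0.23) and Efnb2 (0.25) lie to the right.

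The arrays did not contribute evenly. The median deviation of the 34 genes from their own means was 0.06, 0.18 and 0.38 on the log2 scale in controls 1, 2 and 3. In bitransgenic lungs 1, 2 and 3 it was -0.15, -0.13 and -0.24. The same median over all genes tested stayed between -0.02 and 0.04. Control 3 was the highest of the controls for 22 of the 34 genes and the lowest of them for 10. Its mean correlation with the rest was also the lowest (0.956, against 0.965 to 0.975), as was its 3' to 5' signal ratio of Actb, a measure of RNA integrity. That ratio was 1.285 to 1.501 in controls and 1.506 to 1.646 in bitransgenic lungs, higher in every bitransgenic array. With it as a covariate 27 of the 34 changes were below 0, against 46% of all genes, with a median of -0.21 and no gene called. Because the ratio separated the groups, its effect and that of the group cannot be told apart in any value given with this covariate. Without control 3 no gene passed, 31 of 34 log2 changes were below 0, the median was -0.35 and the groups did not overlap for 23, against 13.3% of all genes in that comparison.

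**Figure D2:**
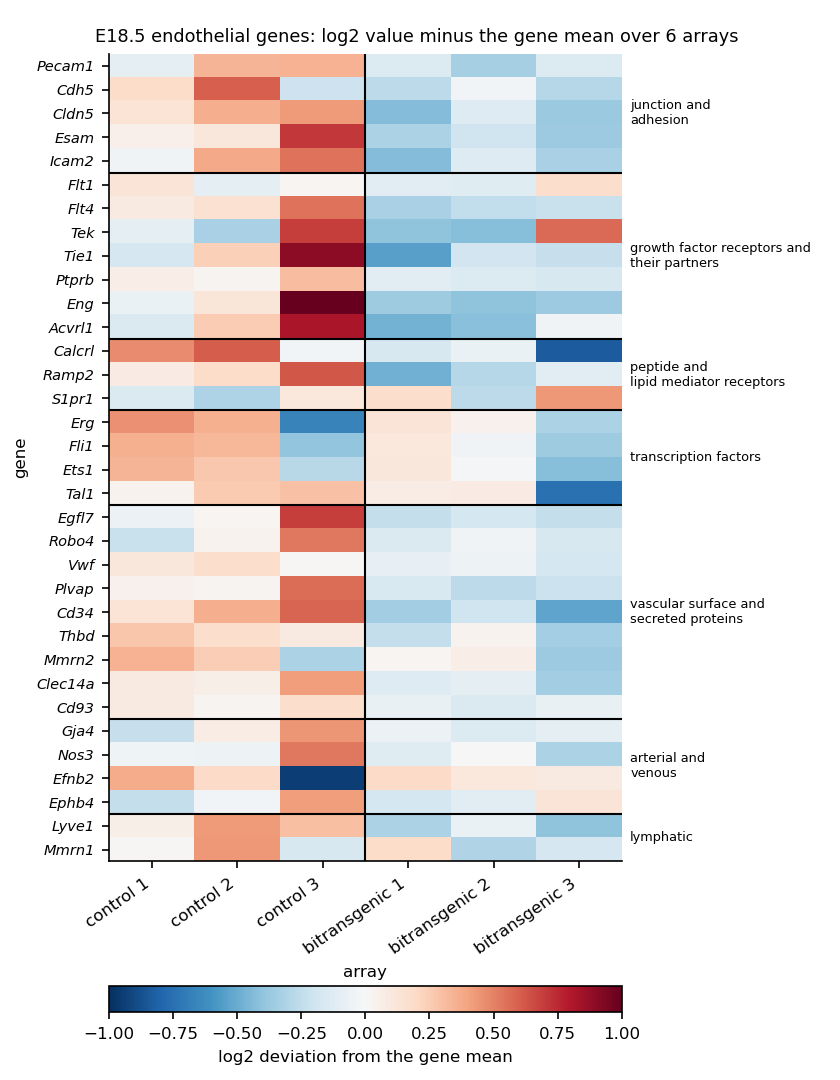
Log2 value minus the mean of the gene over the 6 E18.5 arrays, for the 34 endothelial genes past the filter (rows, by role) in each array (columns); red is above the mean of the gene and blue below it. Control 3 holds the deepest red cells in the receptor and junction genes and the deepest blue cell in Efnb2, while 26 to 29 of the 34 genes are below their mean in each bitransgenic array.

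Junction and adhesion genes had all 5 log2 changes below 0, with a median of -0.58, and for 4 of the 5 the groups did not overlap (7.54% of all genes). With the Actb ratio as covariate the median was -0.31, and all 5 were still below 0. Cldn5, the tight-junction claudin of endothelium, read 13780, 16130 and 16810 in the control lungs against 9256, 11420 and 9648 in the bitransgenic ones. Every bitransgenic value was below every control. The means were 15570 ± 1586 (SD, n = 3) and 10110 ± 1154 (SD, n = 3), a level 35.1% lower, with a log2 change of -0.62 (SE 0.13, limma adjusted p = 0.0933). Icam2, an adhesion molecule for leukocytes, read 9048, 12030 and 13520 against 6830, 8458 and 7392. Esam, an immunoglobulin-type junction protein, read 14460, 15090 and 22730 against 11180, 12150 and 10830. Both had separate groups, with log2 changes of -0.59 and -0.58 (limma adjusted p = 0.233 and 0.273). These were -0.23 and -0.15 with the Actb covariate, and Esam was at -0.374 without control 3.

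Pecam1, the platelet-endothelial adhesion molecule CD31, read 3024, 4108 and 4111 in the control lungs against 2925, 2547 and 2919 in the bitransgenic ones. The groups were apart only narrowly, with control 1 next to bitransgenic 1 and 3 (log2 change -0.40, 95% interval -0.75 to -0.05, limma adjusted p = 0.448). Cdh5, which encodes VE-cadherin, read 8400, 11220 and 6407 against 6153, 7255 and 6062. Its groups overlapped through control 3, and the log2 change was -0.38 (95% interval -0.82 to 0.06, limma adjusted p = 0.603). It was -0.579 without control 3 and -0.18 without control 2. A second Cdh5 probe set past the filter read 628.9, 592.4 and 961.9 in the control lungs against 341.4, 396.1 and 475.1. Its groups were separate, control 3 was the highest control there, and the log2 change was -0.71.

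The growth factor receptors split between genes with separate groups and genes with none. All 7 log2 changes were below 0, from -0.75 to -0.03, and the groups did not overlap for 4 (7.54% of all genes). Their median was -0.52, and -0.12 with the Actb covariate, where 6 of the 7 were below 0. Eng, the endoglin co-receptor for BMP9 and TGF-beta, read 3646, 4152 and 8124 in the control lungs against 2955, 2859 and 2938 in the bitransgenic ones. The bitransgenic values lay close together and below all controls, but control 3 was far above the other two controls. The means were 5308 ± 2452 (SD, n = 3) and 2917 ± 51 (SD, n = 3), with a log2 change of -0.75 (SE 0.26, limma adjusted p = 0.371), or -0.13 once the Actb ratio was a covariate and -0.405 without control 3. A second Eng probe set past the filter read 4015, 3938 and 3287 against 3128, 2783 and 2810. Its groups were also separate, but control 3 was the lowest control there and the log2 change was -0.35. Acvrl1, the ALK1 receptor that signals with endoglin, read 2896, 3853 and 5735 against 2289, 2376 and 3128. Control 1 lay below bitransgenic 3, so the groups overlapped (log2 change -0.62, limma adjusted p = 0.423). The change was -0.366 without control 3 and -0.16 with the Actb covariate. A second Acvrl1 probe set past the filter read 1372, 1765 and 2289 in the control lungs against 1132, 1073 and 1077. Its groups were separate, with a log2 change of -0.65.

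Tie1, an orphan receptor that modulates angiopoietin signalling, read 2903, 3873 and 6153 in the control lungs against 2216, 2844 and 2765 in the bitransgenic ones. The groups were apart by a narrow margin, and the log2 change of -0.65 (limma adjusted p = 0.422) was -0.0027 once the Actb ratio was a covariate and -0.36 without control 3. Flt4, the VEGF-C receptor VEGFR3, read 3930, 4112 and 5399 against 2931, 3092 and 3153, with separate groups and a log2 change of -0.52 (limma adjusted p = 0.247). Ptprb, the VE-PTP phosphatase that restrains Tie2 and VE-cadherin signalling, had separate groups as well and a smaller log2 change of -0.27 (95% interval -0.54 to -0.0027). With the Actb covariate Flt4 was at -0.25 and Ptprb at -0.12.

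Tek, the angiopoietin receptor Tie2, read 3007, 2560 and 5252 in the control lungs against 2417, 2387 and 4816 in the bitransgenic ones. The third array of each group was high, and the sign of its log2 change of -0.18 turned without control 3 (0.125). Flt1, the decoy VEGF receptor VEGFR1, read 2903, 2481 and 2690 against 2463, 2435 and 3006. Its groups overlapped throughout and its log2 change was -0.03 (95% interval -0.35 to 0.29), with a sign that turned without control 1, bitransgenic 1 or bitransgenic 2 (0.0105 to 0.0212). All 4 Flt1 probe sets past the filter had log2 changes between -0.26 and -0.03.

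Calcrl and Ramp2, which together form the adrenomedullin receptor of vessels, were both lower in every bitransgenic lung. Calcrl, the receptor itself, read 25470, 27940 and 17940 in the control lungs against 16370, 17510 and 10230 in the bitransgenic ones. Ramp2, its partner that sets ligand choice, read 17900, 19180 and 26020 against 12110, 13880 and 15610. The third arrays were low for Calcrl and high for Ramp2 within their groups, and neither pair of groups overlapped. The log2 changes were -0.70 (SE 0.23) and -0.59 (SE 0.16), with limma adjusted p = 0.322 and 0.226. A second Calcrl probe set had 1887 ± 229 (SD, n = 3) against 778 ± 176 (SD, n = 3), a log2 change of -1.21. Without control 3 and bitransgenic 3, the arrays with the lowest mean correlation to the rest, Calcrl and Ramp2 passed (limma adjusted p = 0.0114 and 0.0463), where 0.887% of all genes were called lower. Calcrl was at -0.463 without bitransgenic 3. With the Actb ratio as covariate Calcrl was at -0.92 and Ramp2 at -0.25 (limma adjusted p = 0.796 and 0.9). Over the 19 alternatives their adjusted p ran from 0.00318 to 0.796 and from 0.0042 to 0.9. S1pr1, the sphingosine-1-phosphate receptor that stabilises vessels, read 1400, 1241 and 1688 in controls and 1775, 1286 and 2138 in bitransgenic lungs, with overlapping groups and a log2 change of 0.23 (95% interval -0.22 to 0.68).

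**Figure D3:**
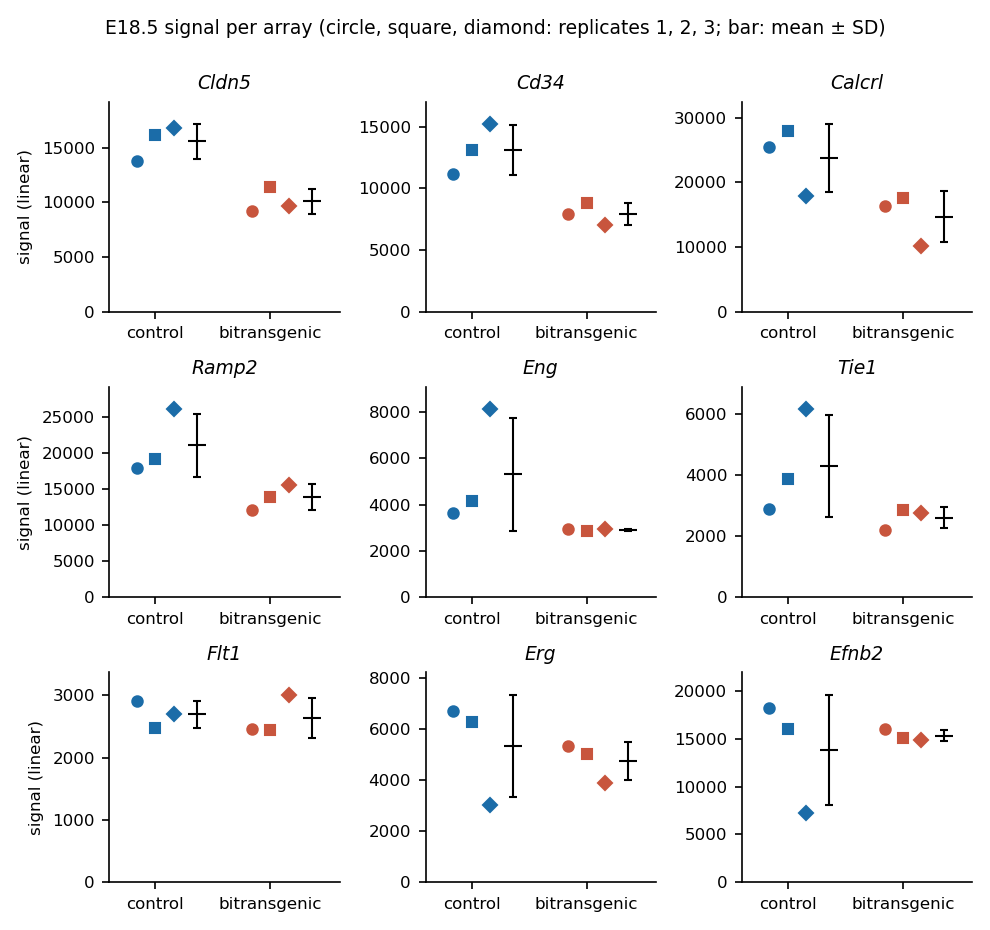
Linear signal in each E18.5 array (vertical axes start at 0) for 9 of the endothelial genes; blue marks controls, red marks bitransgenic lungs, marker shapes are replicates 1 to 3, and black bars are mean ± SD with n = 3. Cldn5, Cd34, Calcrl, Ramp2, Eng and Tie1 have all bitransgenic points below all controls, whereas Flt1, Erg and Efnb2 overlap and control 3 is the low point of Erg (3027) and Efnb2 (7259).

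The transcription factor genes had smaller changes. Erg, Fli1 and Ets1 belong to the ETS family, which binds sites with a GGAA core, and Tal1 is a basic helix-loop-helix factor of blood and endothelium. Erg read 6705, 6254 and 3027 in the control lungs against 5316, 5005 and 3891 in the bitransgenic ones. Fli1 read 7254, 7136 and 4276 against 6100, 5527 and 4414, and Ets1 read 14160, 13460 and 9224 against 12080, 11030 and 8299. In each of these genes the third array was the lowest of its group, and control 3 lay within or below the bitransgenic range. Their log2 changes were -0.10, -0.19 and -0.22, with 95% intervals of -0.72 to 0.52, -0.67 to 0.30 and -0.66 to 0.22. The sign of Erg turned without control 1 (0.106), control 2 (0.0567) or bitransgenic 3 (0.0353). Tal1 had a log2 change of -0.39 (95% interval -0.90 to 0.11) and overlapped because only bitransgenic 3 (1033) was well below the controls (1837 to 2216). For none of these 4 genes were the groups separate. With the Actb ratio as covariate their median was -0.60, against -0.20 without it, and all 4 stayed below 0. Without control 3 the changes of Erg, Fli1 and Ets1 were -0.456, -0.435 and -0.414, and without bitransgenic 3 that of Tal1 was -0.12.

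Promoter sequences (250 bases before to 50 after the start, RefSeq, GRCm38.p6) were at hand for 19 of the 36 genes, as 25 promoters. The ETS-type words AGGAAG and ACCGGA were searched on both strands, and no base fell in more than 1 word. AGGAAG was in 10 of the 25 (40%), against 35.4% of all 32851 promoters of that length, and ACCGGA in 2 (8%), against 8.35%. Either word was in 12 of the 25 (48%), against 40.8% of all promoters, and in at least 1 promoter of 11 of the 19 genes (57.9%), against 44.1% of all genes in the table. No test was made of these shares. The promoters of the matched genes with the 5 lowest log2 changes are shown, with AGGAAG or its reverse complement in capitals. A match is a description of the letters, not of binding.
Eng (chr2:32646345-32646644, plus strand): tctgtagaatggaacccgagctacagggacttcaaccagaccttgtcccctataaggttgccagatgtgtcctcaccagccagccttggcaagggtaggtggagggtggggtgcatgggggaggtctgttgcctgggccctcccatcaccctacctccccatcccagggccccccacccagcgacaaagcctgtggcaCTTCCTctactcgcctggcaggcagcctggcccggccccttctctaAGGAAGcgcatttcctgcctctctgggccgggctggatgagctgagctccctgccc
Cd34 (chr1:194938571-194938870, plus strand): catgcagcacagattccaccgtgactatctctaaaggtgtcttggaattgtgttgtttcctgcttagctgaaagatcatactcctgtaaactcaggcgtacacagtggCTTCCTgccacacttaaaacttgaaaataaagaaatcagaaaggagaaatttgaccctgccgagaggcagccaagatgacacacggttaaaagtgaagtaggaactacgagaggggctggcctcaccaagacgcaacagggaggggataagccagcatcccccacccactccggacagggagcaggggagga
Calcrl (chr2:84425217-84425516, minus strand): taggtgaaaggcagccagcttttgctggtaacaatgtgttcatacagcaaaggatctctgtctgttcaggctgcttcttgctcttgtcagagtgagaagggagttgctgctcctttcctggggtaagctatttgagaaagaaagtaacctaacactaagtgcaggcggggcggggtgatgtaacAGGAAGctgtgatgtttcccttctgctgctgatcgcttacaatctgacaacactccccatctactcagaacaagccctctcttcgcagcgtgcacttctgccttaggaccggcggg
Tie1 (chr4:118489800-118490099, minus strand): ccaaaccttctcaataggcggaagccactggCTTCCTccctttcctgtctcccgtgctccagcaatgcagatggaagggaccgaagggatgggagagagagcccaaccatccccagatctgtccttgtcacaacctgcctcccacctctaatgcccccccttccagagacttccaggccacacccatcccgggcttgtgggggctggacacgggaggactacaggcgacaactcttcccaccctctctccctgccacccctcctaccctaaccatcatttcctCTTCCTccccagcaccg
Cldn5 (chr16:18776597-18776896, plus strand): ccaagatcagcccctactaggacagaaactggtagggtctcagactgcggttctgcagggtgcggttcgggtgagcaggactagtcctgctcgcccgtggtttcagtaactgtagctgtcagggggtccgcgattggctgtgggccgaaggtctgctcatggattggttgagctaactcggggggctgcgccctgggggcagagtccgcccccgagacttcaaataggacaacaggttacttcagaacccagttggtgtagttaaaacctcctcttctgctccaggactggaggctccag
Eng and Tie1 held 2 words each, Cd34 and Calcrl held 1, and the Cldn5 window held 0.

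Surface and secreted proteins of vessels had all 9 log2 changes below 0, from -0.72 to -0.19, and separate groups in 7 (7.54% of all genes). With the Actb covariate 7 of the 9 were below 0 and their median was -0.16, against -0.36 without it. Cd34, a sialomucin of capillaries and of blood progenitors, read 11170, 13100 and 15220 in the control lungs against 7956, 8818 and 7043 in the bitransgenic ones. All controls were above all bitransgenic values, with means of 13160 ± 2027 (SD, n = 3) and 7939 ± 888 (SD, n = 3). Its log2 change of -0.72 (SE 0.15) had the smallest p among the 34 genes, ranking 128 of the 12623 tested (limma adjusted p = 0.0819), and was -0.42 once the Actb ratio was a covariate.

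Plvap, the diaphragm protein of fenestrae and caveolae, read 5651, 5606 and 8114 in the control lungs against 4916, 4566 and 4710 in the bitransgenic ones. Egfl7, a secreted matrix protein of growing vessels, read 6901, 7293 and 11620 against 6059, 6343 and 6072. Both had tight bitransgenic values below all controls and log2 changes of -0.42 and -0.44 (limma adjusted p = 0.429 and 0.504), and Egfl7 was at 0.0176 once the Actb ratio was a covariate. Without control 3 they were at -0.247 and -0.202. The other Egfl7 probe sets past the filter had overlapping groups, with log2 changes of -0.22, -0.22 and -0.41. Clec14a, a lectin-type protein of sprouting vessels, Thbd, the anticoagulant thrombomodulin, Vwf, the clotting factor carrier von Willebrand factor, and Cd93, a C-type lectin relative of Clec14a, also had separate groups. Their log2 changes were -0.38, -0.36, -0.20 and -0.20. The smallest of these differences were also tight: Vwf read 5159 ± 295 (SD, n = 3) against 4472 ± 211 (SD, n = 3), and Cd93 35290 ± 1830 (SD, n = 3) against 30760 ± 813 (SD, n = 3). A second Clec14a probe set past the filter had overlapping groups, with a log2 change of -0.12. The other Cd93 probe sets past the filter were separate at -0.43 and overlapping at -0.22 and -0.22. Robo4, a guidance receptor that limits leakage, and Mmrn2, a matrix ligand of Clec14a and Cd93, overlapped. Their log2 changes were -0.23 and -0.19, or -0.0214 and -0.389 without control 3. The other Mmrn2 probe sets past the filter were separate at -0.41 and -0.30 and overlapping at -0.10.

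In the probe sets used no arterial or venous gene had separate groups, as in the transcription factors. Of the 4 past the filter, 3 had log2 changes below 0. Nos3, the endothelial nitric oxide synthase, read 1816, 1800 and 2727 in the control lungs against 1717, 1876 and 1480 in the bitransgenic ones (log2 change -0.29, 95% interval -0.71 to 0.13). Gja4, the arterial connexin 37, read 2247, 2804 and 3633 against 2539, 2407 and 2488 (log2 change -0.19). With the Actb ratio as covariate the median of the 4 was 0.12, against -0.14 without it. Without control 3 Nos3 was at -0.0983 and Gja4 at -0.0185. Ephb4, the venous Eph receptor, had -0.10 (95% interval -0.52 to 0.32), which turned to 0.0857 without control 3. Efnb2, the arterial ephrin that binds it, read 18160, 15990 and 7259 against 15990, 15040 and 14880. Control 3 was far below every other array there, and the log2 change of 0.25 (95% interval -0.40 to 0.90) became -0.155 without it. The other Efnb2 probe sets past the filter had log2 changes of -0.09 and -0.69, so they differed in sign from the one used. The one at -0.69 had separate groups, at 425.5, 417.9 and 448 in controls against 383.4, 402.1 and 56.7. Its bitransgenic 3 value was under the pseudocount of 86.4. Gja5, the arterial connexin 40, was below the filter, at 32.5 ± 4.14 (SD, n = 3) in control lungs against 29.9 ± 10.8 (SD, n = 3) in bitransgenic lungs.

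Among lymphatic genes, Lyve1, a hyaluronan receptor of lymphatic vessels and of some macrophages, read 11770, 15250 and 13950 in the control lungs against 9081, 10800 and 8537 in the bitransgenic ones. The groups were separate and the log2 change was -0.52 (SE 0.14, limma adjusted p = 0.22). Mmrn1, the multimerin of lymphatics and platelets, read 1923, 2608 and 1696 against 2173, 1531 and 1685, with overlapping groups and a log2 change of -0.19 (95% interval -0.63 to 0.24), or -0.0221 without control 2. Prox1, the master regulator of lymphatic fate, was below the filter at 134 ± 47.4 (SD, n = 3) and 121 ± 12.5 (SD, n = 3). Flt4, described above, is also strong in lymphatic vessels.

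The controls were more scattered than the bitransgenic lungs for most of these genes. The median coefficient of variation of the 34 genes was 22.1% in controls and 11.6% in bitransgenic lungs, against 15.4% and 12.5% over all genes tested. It was larger in controls for 27 of the 34, against 58.9% of all genes. Of the 34 genes, 15 had several probe sets past the filter, and in 1 of the 15 (Efnb2) the signs differed. Over all their probe sets past the filter, 59 of 61 had a negative log2 change.

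A second list of 40 endothelial genes, not overlapping the first, gave 34 past the filter. Of these 1 fell, where 0.436% of all genes did, and 0 rose. At an unadjusted p under 0.05, 19 were lower (5.13% of all genes). The log2 change was below 0 for 30 of the 34 (47.4% of all genes), with a median of -0.36. With the Actb covariate 27 were below 0 (46% of all genes), with a median of -0.21. The gene that fell was Car4, the membrane carbonic anhydrase found on lung capillaries, with 1912 ± 292 (SD, n = 3) in control lungs against 648 ± 30.8 (SD, n = 3), which is -1.44 on the log2 scale (SE 0.16, limma adjusted p = 0.00347). With the Actb ratio entered its log2 change was -1.45 (limma adjusted p = 0.0912), and in the other 18 alternatives it passed. Cyyr1 and the sialomucin genes Podxl and Emcn had log2 changes of -0.54, -0.54 and -0.71 (limma adjusted p = 0.0954, 0.127 and 0.22). With array weights all of them were called lower (limma adjusted p = 0.00298, 0.00269 and 0.0056), where 5.78% of all genes were. Without control 3 and bitransgenic 3 Cyyr1 was called lower (limma adjusted p = 0.0461), where 0.887% of all genes were. Kdr, the main VEGF receptor, is named for its role, and its log2 change was -0.31 (limma adjusted p = 0.504). The plot of cumulative shares sets both lists beside all genes.

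**Figure D4:**
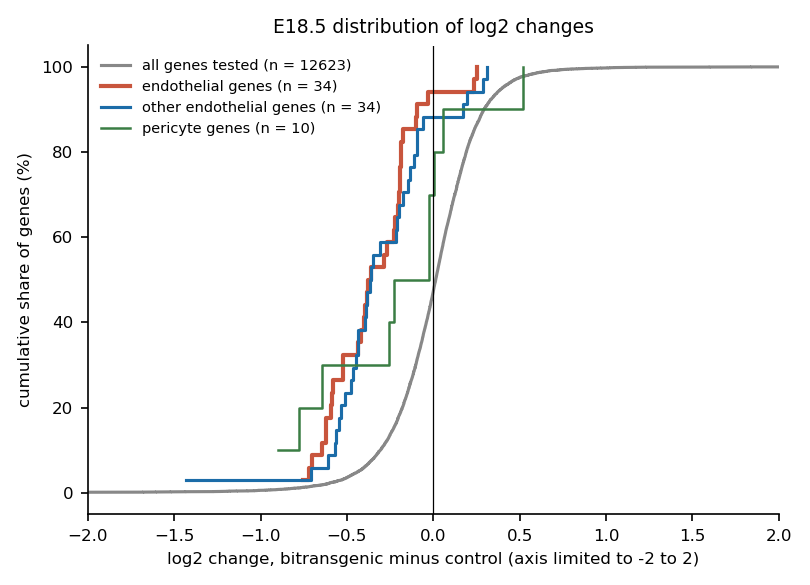
Cumulative share of genes (vertical axis, percent) at or below each log2 change, bitransgenic minus control, at E18.5 for all 12623 genes tested, the 34 endothelial genes, 34 other endothelial genes and 10 pericyte genes; the horizontal axis is limited to -2 to 2. Both endothelial curves lie left of the curve of all genes, with medians of -0.37 and -0.36 against 0.01, and the pericyte curve has a median of -0.13.

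A list of ligands of these receptors also holds Ephb3, an Eph receptor that binds Efnb2, and Sphk1, the kinase that makes sphingosine-1-phosphate. Of its 15 genes past the filter 0 passed the test, and 9 of the 15 had a log2 change below 0 (47.4% of all genes), with a median of -0.05. Vegfa, the ligand of Flt1 and Kdr, read 8475 ± 667 (SD, n = 3) in control lungs against 6632 ± 714 (SD, n = 3) in bitransgenic lungs, with separate groups and a log2 change of -0.35 (limma adjusted p = 0.413). Adm, the adrenomedullin gene, read 1661 ± 595 (SD, n = 3) against 1021 ± 258 (SD, n = 3), with overlapping groups. Tgfb3, a ligand of the endoglin receptor complex, lay higher in every bitransgenic lung, and differed by 0.41 on the log2 scale (limma adjusted p = 0.407). With array weights Adm and Vegfc were called lower and Tgfb3 higher (limma adjusted p = 0.0243, 0.0303 and 0.0148). That fit, which stopped before full convergence, called 730 of all 12623 genes lower and 607 higher.

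Markers of the cells around the vessels were measured beside them. In 10 pericyte genes 0 passed, the summed signals overlapped (56170 to 59990 in controls, 52650 to 58560 in bitransgenic lungs), and the log2 changes of Ndufa4l2 and Higd1b were -0.90 and -0.78. Of the 10, 3 had all bitransgenic values below all controls (7.54% of all genes): Ndufa4l2, Higd1b and Cspg4, the NG2 proteoglycan (1892 ± 335 against 1555 ± 60.8, SD, n = 3). With array weights Ndufa4l2 and Higd1b were called lower (limma adjusted p = 0.00196 and 0.00677), and without control 3 and bitransgenic 3 Ndufa4l2 was (limma adjusted p = 0.0481). The markers Pdgfrb (20200 ± 4087 against 19660 ± 2868, SD, n = 3) and Notch3 (8314 ± 655 against 8366 ± 924, SD, n = 3) overlapped between the groups. Rgs5 overlapped as well, with a log2 change of 0.52 (3793 ± 1155 against 5585 ± 2031, SD, n = 3). Of the 10 pericyte genes 7 had a log2 change below 0 and 3 above, with a median of -0.13. With the Actb covariate 4 were below 0 and the median was 0.04. Ndufa4l2, Higd1b and Cspg4 were then at -0.39, -0.39 and 0.02. The 9 smooth muscle genes had a median of 0.09, the 10 pan-leukocyte genes of 0.00 and the 10 mesenchymal genes of 0.05, all with overlapping sums and 0 called. The 7 measured erythroid genes summed to 13740 to 16820 in controls and 7971 to 9795 in bitransgenic lungs, and the 8 measured platelet genes to 7020 to 7733 and 6459 to 6707, so both sums were lower in every bitransgenic lung. The erythroid sum was mostly Alas2 (11700 ± 2398 against 6541 ± 1170, SD, n = 3) and Slc4a1 (3001 ± 878.5 against 1790 ± 310, SD, n = 3). The groups were separate for Alas2 and overlapped for Slc4a1. Of the other erythroid genes 4 were below the filter, among them Hba-a1, which lay higher in every bitransgenic lung (33.96 ± 10.97 against 88.44 ± 24.37, SD, n = 3), and Klf1 overlapped. Pf4 gave most of the platelet sum, with overlapping groups (4116 ± 347 against 3712 ± 357, SD, n = 3). In both lists 0 genes were called. Of 9 alveolar type II genes past the filter 5 fell (Sftpa1, Abca3, Scd1, Lpcat1 and Slc34a2), and of 10 type I genes 3 fell (Aqp5, Rtkn2 and Clic5), with sums of 333200 to 367200 against 138200 to 178700 and of 300700 to 313700 against 223500 to 253100. Of 6 mesothelial genes 1 fell, Msln, and of 7 macrophage and 5 cardiac muscle genes 0 passed. Of all genes tested 0.436% fell. No gene of these lists was under the pseudocount in all 6 arrays. Their part in the endothelial values was not tested.

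At E11.5 the lung and the trachea had 1 array each, so the ratios describe those samples and carry no test. Lung identity was visible in Sftpc, which read 1503 in lung and 257 in trachea. Of the 27 endothelial genes on the array, 20 passed the filter, with 8 higher in lung and 12 higher in trachea. The median log2 ratio, lung over trachea, was -0.12, against -0.0019 over all genes past the filter, of which 50.2% were higher in trachea. Of the 20, 19 had their higher signal above the table median, and in 1 of these 19 the ratio exceeded 2-fold, where 3.48% of all 5115 such genes did so. It lay on the trachea side (2.29% of all genes), with 0 on the lung side (1.19%). The remaining genes past the filter differed by less than 2-fold.

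That gene was Vwf, with 223 in lung and 895 in trachea, a log2 ratio of -1.67. A second Vwf probe set read 93.9 and 43.2, near the pseudocount of 84.3 and with the opposite sign. The growth factor receptors had the lowest median of the roles with more than 2 genes past the filter, -0.72 over 6 genes. Eng read 5306 in lung and 9542 in trachea, Flt4 818 and 1461, Flt1 776 and 1341, and Tie1 974 and 1641, so all 4 were higher in trachea by less than 2-fold. Tek (730 and 690) was nearly equal and Acvrl1 (1377 and 1065) was higher in lung in all 3 of its probe sets. The other Flt4 probe set had a log2 ratio of 0.39, against -0.78 for the one used.

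Among junction genes, Cldn5 (2695 in lung, 1711 in trachea) and Pecam1 (847 and 556) were higher in lung. Cdh5 (3277 and 4371) and Icam2 (677 and 966) were higher in trachea, so the role had no common direction. Ramp2 read 2978 and 2633, Cd34 1614 and 1971, Cd93 2316 and 1840, and Thbd 1165 and 875. Fli1 (741 and 780) and Tal1 (374 and 266) lay within 1.41-fold of equality, and Ets1 read 1620 and 2767, while its other probe set had a log2 ratio of 0.69 in the opposite direction. Efnb2 (5282 and 5986) and Gja5 (697 and 723) were nearly equal.

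Esam, Erg, Egfl7, Robo4, Plvap, Mmrn2, Clec14a, Ephb4 and Mmrn1 had no named probe set on this array, and 7 genes were below the filter. Lyve1 read 350 in lung and 68.2 in trachea and Gja4 107 and 516, both below the table median of 543 in either tissue. Ptprb, Calcrl, S1pr1, Nos3 and Prox1 had signals of 43.2 to 270.1, where the ratio depends on the pseudocount. Signals of the 2 array types come from different probes and separate scaling, so no level was set across the ages.

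**Figure D5:**
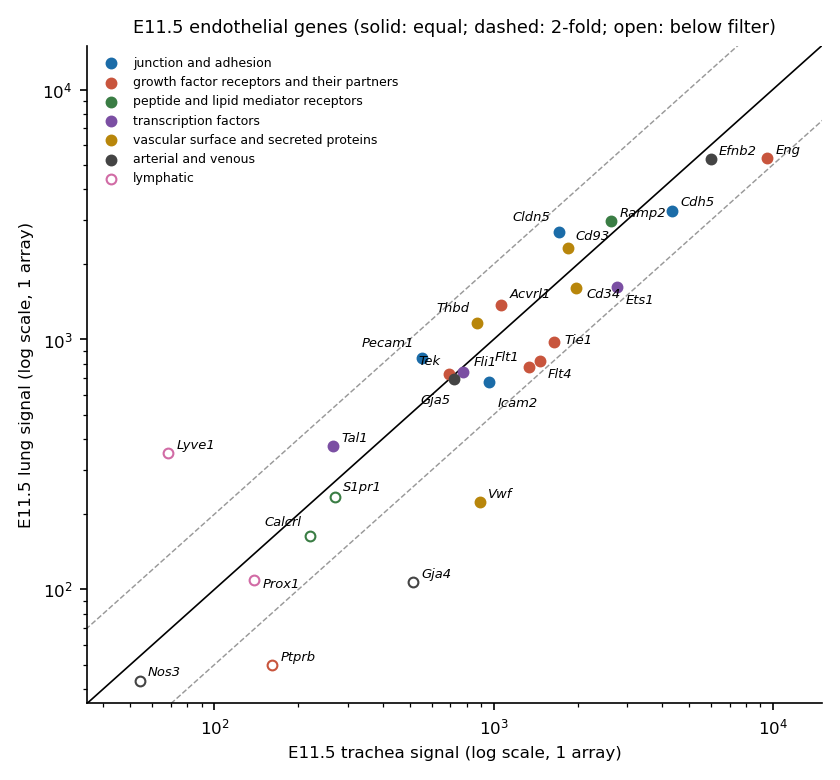
Signal of the 27 endothelial genes in the single E11.5 trachea array (horizontal axis, log scale) and the single E11.5 lung array (vertical axis, log scale), coloured by role; the solid line marks equal signals, dashed lines mark a 2-fold difference, and open circles are the 7 genes below the filter. Past the filter Vwf alone lies outside the 2-fold lines, with 223 in lung and 895 in trachea.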

How the data were processed

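Per the submitters' processing notes the authors made the signals with MAS5, with no version named there. The deposited tables hold 1 intensity per probe set and array on a linear scale, with no detection calls. The values show a 2% trimmed mean of 1500 on every array. Control probe sets (64 on the E18.5 array, 66 on the E11.5 array) were left out. Of 45037 other probe sets at E18.5, 34945 were annotated with a single symbol, 932 with several and 9160 with none. At E11.5 these were 10833, 396 and 1193 of 12422. Only those with 1 symbol were used.

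Values were analysed as log2(signal + pseudocount), with the pseudocount at the 20th percentile of the table (86.4 and 84.3). Changes are on that scale, which compresses those of low signals. A gene passed the filter when the mean log2 value of its probe set reached the 40th percentile of the array's probe sets. Differences at E18.5 were tested with limma 3.58.1 (R 4.3.3; lmFit, eBayes with an intensity trend) over all 12623 genes, with two-sided p-values adjusted by Benjamini-Hochberg. Exact permutation of 3 against 3 arrays cannot go below p = 0.1. The fit was tested on simulated data. Figures used matplotlib 3.10.9. The number of arrays limits the precision, and signals of different probe sets were not compared with each other.

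Replicates were numbered in accession order. The genes, the lists of other cell types and the alternatives were chosen with earlier results of these data known. All 36 listed genes are named. From the other lists the genes past the threshold are named with up to 4 more per list and Mia. Kdr, Pdgfrb, Notch3, Cspg4, Rgs5, Alas2, Slc4a1, Hba-a1, Klf1, Pf4, Sftpc and the E11.5 values of Emcn and Vegfa were added after their values were seen. Signals with the suffix of shared probes, as used for Egfl7 and Ets1, can include related transcripts.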

Additional observations from a re-analysis of the deposited data

How the results depend on the processing

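No paired analysis was possible because the labels give no number shared between the E18.5 groups. With array weights 13 endothelial genes were lower (Pecam1, Cdh5, Cldn5, Esam, Icam2, Flt4, Tie1, Eng, Acvrl1, Calcrl, Ramp2, Cd34 and Lyve1), where 5.78% of all genes were called lower. That fit stopped before full convergence and weighted the arrays from 0.223 (control 3) to 6.26 (control 2). Without control 3 and bitransgenic 3 the count was 2. In the other 17 alternatives it was 0, and the count of higher genes was 0 in all 19. Leaving out 1 array at a time, 30 to 31 of the 34 changes were below 0, the median ran from -0.391 to -0.292, and 18 to 23 genes had bitransgenic values below all controls, against 9.65% to 14.3% of all genes. Median centring and quantile normalization gave medians of -0.39 and -0.353.

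Single changes turned sign in 20 cases, none of them called. With the Actb ratio entered these were Tek (0.226), Egfl7 (0.0176), Robo4 (0.207), Gja4 (0.12), Nos3 (0.123), Ephb4 (0.239) and Efnb2 (-0.517). Efnb2 also turned with the mean of its probe sets (-0.293), array weights (-0.0385), without control 3 (-0.155) and without control 3 and bitransgenic 3 (-0.135), where Robo4 was at 0.000276. Without control 3 Tek (0.125) and Ephb4 (0.0857) turned. Erg turned without control 1 (0.106), control 2 (0.0567) and bitransgenic 3 (0.0353), and Flt1 without control 1 (0.0212), bitransgenic 1 (0.0105) and bitransgenic 2 (0.0186). The cause was not tested. Over the runs that leave out 1 array the changes of these genes spanned -0.129 to 0.0212 for Flt1, -0.501 to 0.125 for Tek, -0.456 to 0.106 for Erg, -0.155 to 0.501 for Efnb2 and -0.241 to 0.0857 for Ephb4.

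At E11.5 the count of genes over 2-fold apart was 0 with a filter at the 60th percentile and 0 with the mean of the probe sets of a gene, and the median was -0.275 with that filter, which left 13 genes.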

Other observations

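Among the other endothelial genes of the second list, 18 of 25 on the E11.5 array passed the filter. Of the 18, 13 were higher in trachea, against 50.2% of all genes past the filter (median log2 ratio -0.25, lung over trachea). The genes over 2-fold apart were 3, all higher in trachea: Hey1, a Notch target that mesenchyme and epithelium also express (954 in lung, 3598 in trachea), Nrp1, a VEGF co-receptor that neural tissue also expresses (3367 and 8011), and Foxc2, a factor of lymphatic valves and of mesenchyme (721 and 2369). Of the 5115 genes past the filter with their higher signal above the table median, 2.29% were over 2-fold higher in trachea. The VEGF receptor gene Kdr read 1118 and 1503 and Emcn 2455 and 3183.

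Among ligands at E11.5, Vegfa read 670 in lung and 414 in trachea, while Vegfc, the ligand of Flt4, read 554 and 1292. Each tissue had 1 array, so these are values of those samples. At E18.5 Vegfc read 3276 ± 430 (SD, n = 3) in control lungs against 2330 ± 742.5 (SD, n = 3) in bitransgenic ones, with overlapping groups (log2 change -0.51, limma adjusted p = 0.47).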
